A study of Saccharomyces cerevisiae and Saccharomyces cerevisiae x Saccharomyces paradoxus and Saccharomyces cerevisiae x Saccharomyces mikatae with 18 samples.

Results

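The aminoacyl-tRNA synthetases of the yeast cytosol and mitochondrion were followed in homozygotes of Saccharomyces species and in the alleles of their hybrids. The members were fixed by gene identifier as 36 genes, of which 22 encode cytosolic enzymes, enzymes shared by both compartments, or the cofactor ARC1, and 14 encode enzymes of the mitochondrion. Of these, 30 were among the 4730 genes in the data, namely 16 of the cytosolic list and all 14 of the mitochondrial list. GLN4, KRS1, SES1, CRS1, YHR020W and YDR341C were not analysed here. They are the genes of the cytosolic list for the glutamine, lysine, serine, cysteine, proline and arginine enzymes.

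The study set the total expression of each species against S. cerevisiae in homozygotes, and the alleles of both species against each other inside a hybrid, where they share one cell. The homozygotes were S. paradoxus CBS 432, S. mikatae IFO 1815, S. bayanus CBS 7001 and, as their reference, S. cerevisiae YHL068, all labelled wild type. YHL068 is a cross of BY4741 and BY4716, heterozygous for the marker alleles lys2Δ0, leu2Δ0, his3Δ1, met15Δ0 and ura3Δ0. The hybrids were YYM014 (BY4716 x OZY361, with S. paradoxus), which also carries ade2 and ura3 on 1 chromosome copy, YYM030 (BY4716 x JRY9175, with S. mikatae), which carries his3Δ, and YYM015 (BY4716 x JRY9191, with S. bayanus), which carries his3 and ura3. Each hybrid has lys2Δ0 on the S. cerevisiae side, and each group is a single strain. Growth was in rich medium (YPD) at 25°C to log phase, with 2 biological replicates for each hybrid and each species other than S. cerevisiae, and 6 libraries of S. cerevisiae, 2 for each pair of species. Reads marked the 3' ends of transcripts, so that a transcript gave reads at its end whatever its length, and levels of different genes were compared with no division by length. The values are scores, reads summed per gene, which the study's methods describe as weighted for GC content, and were scaled here to a common upper quartile. A score is relative to the rest of the library, so that less of a transcript per cell and more of all other RNA cannot be told apart. By the study's methods, reads were kept only if they mapped uniquely and had no A-rich stretch just before the transcript end. These filters depend on the sequence of each species, and their part in the ratios of single genes was not tested.

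Each aminoacyl-tRNA synthetase joins an amino acid to the tRNAs that carry its anticodons, and the charged tRNA is then used by the ribosome. Yeast mitochondria translate a few proteins of the respiratory chain on their own ribosomes. For most amino acids a separate nuclear gene encodes the enzyme that is imported for this purpose. Among the genes in the data, ALA1, GRS1, HTS1 and VAS1 each serve both compartments. Uncharged tRNA in the cytosol activates the kinase Gcn2, which raises translation of Gcn4, the transcription factor of amino acid biosynthesis and of several synthetase genes.

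MSK1 (YNL073W) encodes the mitochondrial lysine enzyme, DPS1 (YLL018C) the cytosolic aspartate enzyme, HTS1 (YPR033C) the histidine enzyme and ALA1 (YOR335C) the alanine enzyme of both compartments, and the results return to these genes most often. They lie on chromosome XIV (488386 to 490116, plus strand), XII (109902 to 111575, minus strand), XVI (637379 to 639019, minus strand) and XV (946233 to 949109, minus strand) of the S. cerevisiae reference R64, in the order named. The 300 bases that end 51 bases before each start codon, from the RefSeq copy of R64, are printed 5′ to 3′ for the S. cerevisiae side of the comparison, since sequences of the other species were not used here. Their positions are chrXIV:488036-488335, chrXII:111626-111925, chrXVI:639070-639369 and chrXV:949160-949459. Capitals mark CCAAT, the core bound by the Hap complex, and GATGAG, the PAC core, on either strand, and TGACTC, the core bound by Gcn4, was searched in the same way.
MSK1: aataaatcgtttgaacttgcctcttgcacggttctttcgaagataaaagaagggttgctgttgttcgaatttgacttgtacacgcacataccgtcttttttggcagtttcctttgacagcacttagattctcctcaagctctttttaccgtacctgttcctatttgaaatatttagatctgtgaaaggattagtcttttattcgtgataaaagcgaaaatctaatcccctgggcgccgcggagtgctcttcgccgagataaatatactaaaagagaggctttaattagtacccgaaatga
DPS1: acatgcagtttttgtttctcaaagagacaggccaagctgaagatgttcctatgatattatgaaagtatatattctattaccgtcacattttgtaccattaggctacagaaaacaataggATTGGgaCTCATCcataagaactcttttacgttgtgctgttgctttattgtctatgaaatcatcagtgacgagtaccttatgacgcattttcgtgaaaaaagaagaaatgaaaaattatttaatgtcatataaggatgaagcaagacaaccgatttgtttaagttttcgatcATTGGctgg
HTS1: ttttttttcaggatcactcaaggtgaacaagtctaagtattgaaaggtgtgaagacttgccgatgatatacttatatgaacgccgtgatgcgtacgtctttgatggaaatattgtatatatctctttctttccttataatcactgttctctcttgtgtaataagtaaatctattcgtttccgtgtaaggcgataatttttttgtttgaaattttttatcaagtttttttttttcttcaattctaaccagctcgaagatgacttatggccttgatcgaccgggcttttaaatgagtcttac
ALA1: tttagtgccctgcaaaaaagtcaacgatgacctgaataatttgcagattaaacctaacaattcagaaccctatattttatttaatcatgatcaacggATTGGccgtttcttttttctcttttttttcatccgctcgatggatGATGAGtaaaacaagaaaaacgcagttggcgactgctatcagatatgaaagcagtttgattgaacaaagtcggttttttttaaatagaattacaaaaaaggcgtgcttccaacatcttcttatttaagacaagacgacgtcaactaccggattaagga

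The windows of DPS1 and ALA1 each hold CCAAT and GATGAG, and those of MSK1 and HTS1 hold none of the 3 motifs. Over all 36 members, TGACTC was present in the windows of 8 of the 22 cytosolic genes (36.4%) and 2 of the 14 mitochondrial genes (14.3%), against 8.07% of the windows of 6001 protein-coding genes. Among the 16 cytosolic genes in the data, DED81, ILS1, THS1 and VAS1 carry it. CCAAT was present in 31.8% of the cytosolic and 35.7% of the mitochondrial windows, against 42.9% of all, and GATGAG in 22.7% and 7.14%, against 19.8%. DED81 and YHR020W are neighbours on opposite strands, and their windows overlap, so that a site in the shared part counts for both genes. Both windows hold TGACTC and CCAAT, and the cytosolic counts of these motifs are thus not all of separate promoters. These are counts of letters in the reference strain and say nothing of binding.

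Homozygote libraries had total scores between 4760197 and 6883279, and single alleles between 2255430 and 3336994. The label check on LYS2 held: the S. cerevisiae allele, deleted in the hybrids, was at 0 to 1.84 in 6 of 6 columns, and the alleles of the other species at 74.6 to 213. S. cerevisiae libraries 1 and 2, counted with S. paradoxus, stood apart from the other 4: their cytosolic synthetases summed to 22145 and 28395, against 43183 to 50296 in libraries 3 to 6. S. mikatae homozygote replicate 1 also stood apart, with a summed score of 16751 for 4 stress genes (HSP12, HSP26, CTT1 and HSP104), against 1779 in replicate 2. The same sum was 3008 and 1808 in S. cerevisiae libraries 1 and 2, against 386 to 935 in libraries 3 to 6.

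The cytosolic synthetases were among the most abundant transcripts and the mitochondrial ones were at lower levels. The median cytosolic member stood at percentile 87.7 to 95.2 of all genes in the 24 columns of homozygote libraries and single alleles, and the median mitochondrial member at percentile 23.8 to 58.5, above 50 in 3 of the 24. As sums, cytosolic members took 0.646% to 2.46% of a column's total score and mitochondrial members 0.0354% to 0.102%. The ratio of the cytosolic to the mitochondrial sum had a median of 14.4 over the 24 columns, with a lowest value of 8.60 in S. bayanus homozygote replicate 2 and a highest of 36.7 in the S. mikatae allele of hybrid replicate 2. That highest value came with CDC60, the cytosolic leucine enzyme, at 75360 in this column, and without CDC60 the ratio ran from 8.36 to 29.2.

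**Figure D1:**
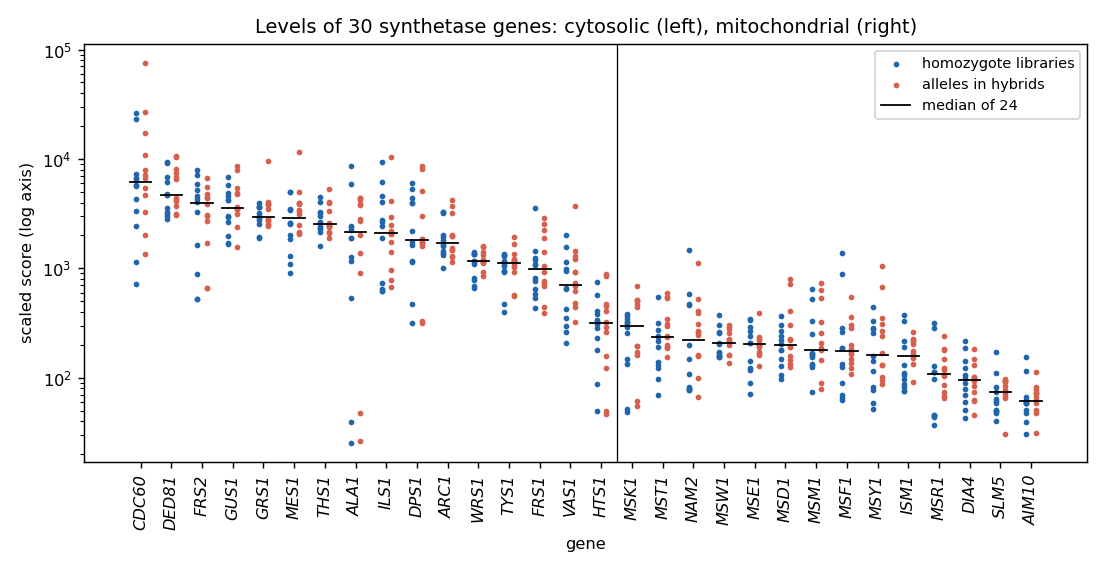
Scaled score (log axis) of each of the 30 synthetase genes, cytosolic at the left and mitochondrial at the right, with 12 homozygote libraries and 12 hybrid alleles as points and the median of the 24 as a line. By median every cytosolic gene lies above every mitochondrial gene, closest for HTS1 at 318 and MSK1 at 299.7, and the 4 S. bayanus values of ALA1, between 25.6 and 48.1, lie far under its other 20.

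Gene by gene, the cytosolic enzyme for an amino acid was above its mitochondrial counterpart in every one of the 24 columns for 9 of the 11 pairings that could be formed. The median homozygote ratio was widest for asparagine, with DED81 over SLM5 at 67.1, and for leucine, with CDC60 over NAM2 at 55.4. It was narrow for tyrosine, with TYS1 over MSY1 at 6.29, for tryptophan, with WRS1 over MSW1 at 6.64, and for the FRS1 subunit of the phenylalanine enzyme over MSF1 at 5.54. The 2 pairings with exceptions were both of phenylalanine: FRS1 and FRS2, the subunits of the cytosolic enzyme, exceeded MSF1 in 22 of 24 columns. FRS1 was below MSF1 in S. bayanus homozygote replicate 2 and the S. paradoxus allele of hybrid replicate 2, and FRS2 in both S. bayanus homozygotes. FRS2 of S. bayanus homozygotes was at 522 and 527 while MSF1 was at 897 and 1394, a reversal of the order seen in every other homozygote library.

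In homozygotes, few synthetases differed between S. paradoxus and S. cerevisiae, more between S. mikatae and S. cerevisiae, and 14 of 30 between S. bayanus and S. cerevisiae. A gene was called where limma gave a Benjamini-Hochberg adjusted p under 0.05 over all genes tested. In S. paradoxus against S. cerevisiae, 2 of 30 synthetases were called, 1 cytosolic gene higher and 1 mitochondrial gene lower, against 19.9% of all genes tested, 8.37% higher and 11.5% lower. In S. mikatae 6 of 30 were called, with 2 cytosolic genes lower, 3 mitochondrial genes higher and 1 lower, against 19.7% of all genes, 8.21% higher and 11.5% lower. In S. bayanus 14 of 30 were called, with 1 cytosolic gene higher, 6 cytosolic genes lower and 7 mitochondrial genes higher, against 34.6% of all genes, of which 18.3% were higher and 16.3% lower. By these counts the share of called synthetases was under that of all genes in S. paradoxus, near it in S. mikatae and above it in S. bayanus. These shares of 30 genes were not tested, and that of S. paradoxus moved with the S. cerevisiae reference, as given below. Between S. bayanus alleles 11 of 30 were called, against 35.3% of all genes.

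With 2 libraries a group, each of these homozygote counts leaned on every library. Leaving out any 1 of the 4 libraries left no call in S. paradoxus or S. mikatae, for synthetases or for any other gene. In S. bayanus no synthetase stayed called without S. bayanus replicate 1 or replicate 2. Fewer were called without S. cerevisiae library 5 or library 6. The share of all genes called in these S. bayanus fits is not given here. The median log2 ratio of all genes moved with the scaling: in S. paradoxus it was -0.20 by upper quartile, -0.46 by library total and -0.01 by median of ratios, and in S. mikatae -0.13, -0.47 and 0.03, so that medians of the lists are set beside it.

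The cytosolic list had a median log2 ratio of 0.45 in S. paradoxus, -0.39 in S. mikatae and -0.07 in S. bayanus, where all genes had -0.20, -0.13 and 0.02. The cytosolic value for S. paradoxus changed sign with its reference: with S. cerevisiae libraries 3 to 6 in place of libraries 1 and 2, a choice made after the values were seen, the median was -0.34, and 7 synthetases were called, against 28.0% of all genes. The mitochondrial list had a median of 0.39 in S. paradoxus, 0.45 in S. mikatae and 1.31 in S. bayanus, and with libraries 3 to 6 the S. paradoxus median was 0.97. The direction of the mitochondrial median was thus the same with either reference and that of the cytosolic median was not.

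Inside the hybrids, where both alleles meet the same cell, 2 of 30 synthetases were called in S. paradoxus, 1 cytosolic gene higher and 1 mitochondrial gene lower on the S. paradoxus allele, against 4.99% of all genes, of which 2.42% were higher and 2.57% lower. Between S. mikatae and S. cerevisiae alleles 4 were called, 1 cytosolic gene higher, 2 cytosolic genes lower and 1 mitochondrial gene lower, against 15.8% of all genes, 7.83% higher and 7.98% lower. In the S. bayanus hybrid 11 were called, with 2 cytosolic genes higher and 6 lower and 1 mitochondrial gene higher and 2 lower, against 35.3% of all genes, 18.3% higher and 17.1% lower. The alleles of a library come from 1 culture, and with the library as a block limma called 0 synthetases and 0.0% of all genes in the S. paradoxus and S. mikatae hybrids, where 8 synthetases in each had an unadjusted p under 0.05. With the block 8 synthetases were called in the S. bayanus hybrid, against 23.6% of all genes. Fits without hybrid replicate 1 or replicate 2 drew on the columns of all 3 hybrids, and the counts moved in S. mikatae and S. bayanus. These counts and the unadjusted ones have no share of all genes beside them, and are not read further. Median log2 ratios of the cytosolic list were -0.02, -0.09 and 0.22 and those of the mitochondrial list 0.71, -0.34 and -0.04 in the S. paradoxus, S. mikatae and S. bayanus hybrids, where all genes had 0.02, -0.04 and 0.04. These medians leaned on single libraries: without hybrid replicate 1 and replicate 2 the cytosolic one was 0.016 and -0.14 in S. mikatae and 0.012 and 0.019 in S. bayanus, and the mitochondrial one was -0.048 and -0.53 in S. mikatae and -0.15 and -0.19 in S. bayanus.

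**Figure D2:**
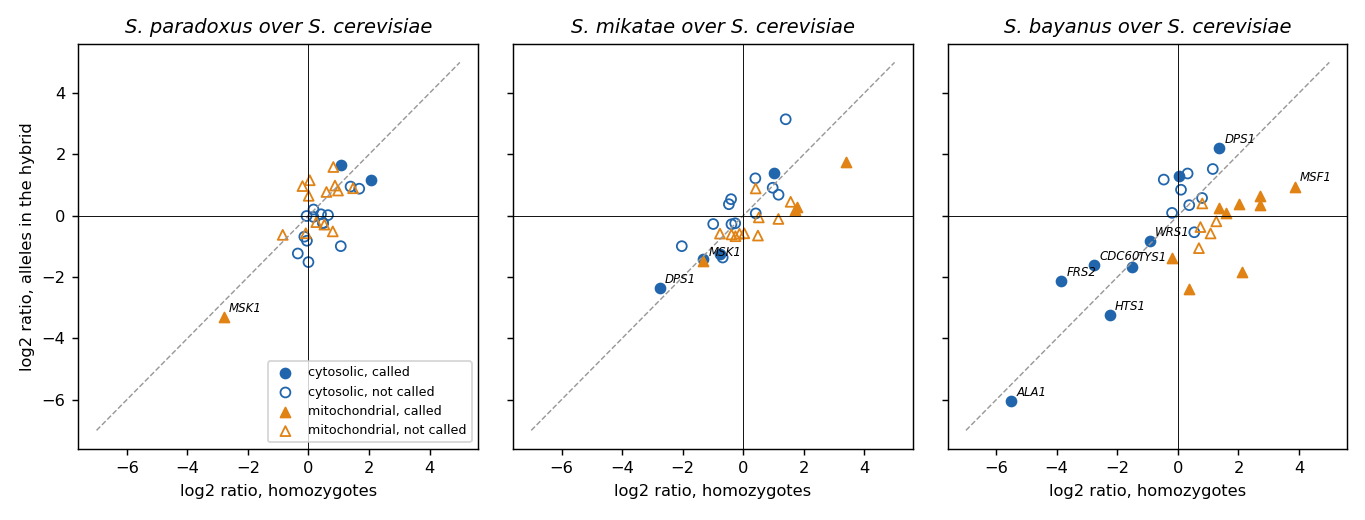
Log2 ratio of the other species over S. cerevisiae in homozygotes (horizontal axis) and between hybrid alleles (vertical axis) for the 30 synthetases, 1 panel per species, with cytosolic genes as circles, mitochondrial genes as triangles, filled where called in either comparison, named where called in both, and the diagonal dashed. In the S. bayanus panel all 14 mitochondrial genes lie right of the diagonal, and the cytosolic genes run from ALA1 at -5.51 and -6.04 to DPS1 at 1.37 and 2.20.

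Over the 6 comparisons, 19 of the 30 synthetases were called at least once, 10 cytosolic and 9 mitochondrial, and 11 never, against 68.2% of the 4394 genes tested in all 6 that were called at least once. DPS1 and MSK1 were called in 5 comparisons each, and HTS1 and MSF1 in 3 each. MSK1, the mitochondrial lysine enzyme, was lower than S. cerevisiae in all 6. Its scores were 49.3 and 51.7 in S. paradoxus homozygotes, against 347 and 369 in S. cerevisiae, with a log2 ratio of -2.80 ± 0.28 (SE, adjusted p = 0.0225), and -2.70 ± 0.21 against S. cerevisiae libraries 3 to 6. In S. mikatae homozygotes they were 149 and 133, against 385 and 324 in S. cerevisiae, with a log2 ratio of -1.32 ± 0.27 (adjusted p = 0.0439). S. bayanus homozygotes had scores of 292 and 258, against 325 and 308 in S. cerevisiae, and the log2 ratio of -0.21 ± 0.22 was not called (adjusted p = 0.503). Of these species, S. paradoxus was far lowest.

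Between alleles MSK1 kept this order for S. paradoxus and S. mikatae, and the S. bayanus allele was lower as well. The S. paradoxus alleles were at 61.8 and 55.3, against 689 and 501 for the S. cerevisiae alleles, with a log2 ratio of -3.31 ± 0.32 (adjusted p = 0.0362, and 0.118 with the library as a block). The S. mikatae alleles were at 194 and 163, against 519 and 476 for the S. cerevisiae alleles, with a log2 ratio of -1.48 ± 0.25 (adjusted p = 0.0371, and 0.0863 with the block). The S. bayanus alleles were at 194 and 172, against 511 and 440 for the S. cerevisiae alleles, with a log2 ratio of -1.37 ± 0.20 (adjusted p = 0.0168, and 0.0418 with the block). MSK1 had the largest fall of any mitochondrial synthetase in both S. paradoxus comparisons. In a test of the difference between species that was added after the values were seen, the homozygote ratio of S. mikatae exceeded that of S. paradoxus by 1.48 ± 0.33 (adjusted p = 0.0231) and the allele ratio by 1.83 ± 0.36 (adjusted p = 0.0174). That test called 4 of 30 synthetases between these species in homozygotes and 6 in alleles, against 14.9% and 10.8% of all genes. For alleles, here and for the genes below, it took both alleles of a hybrid library as independent. It was not run with the library as a block.

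**Figure D3:**
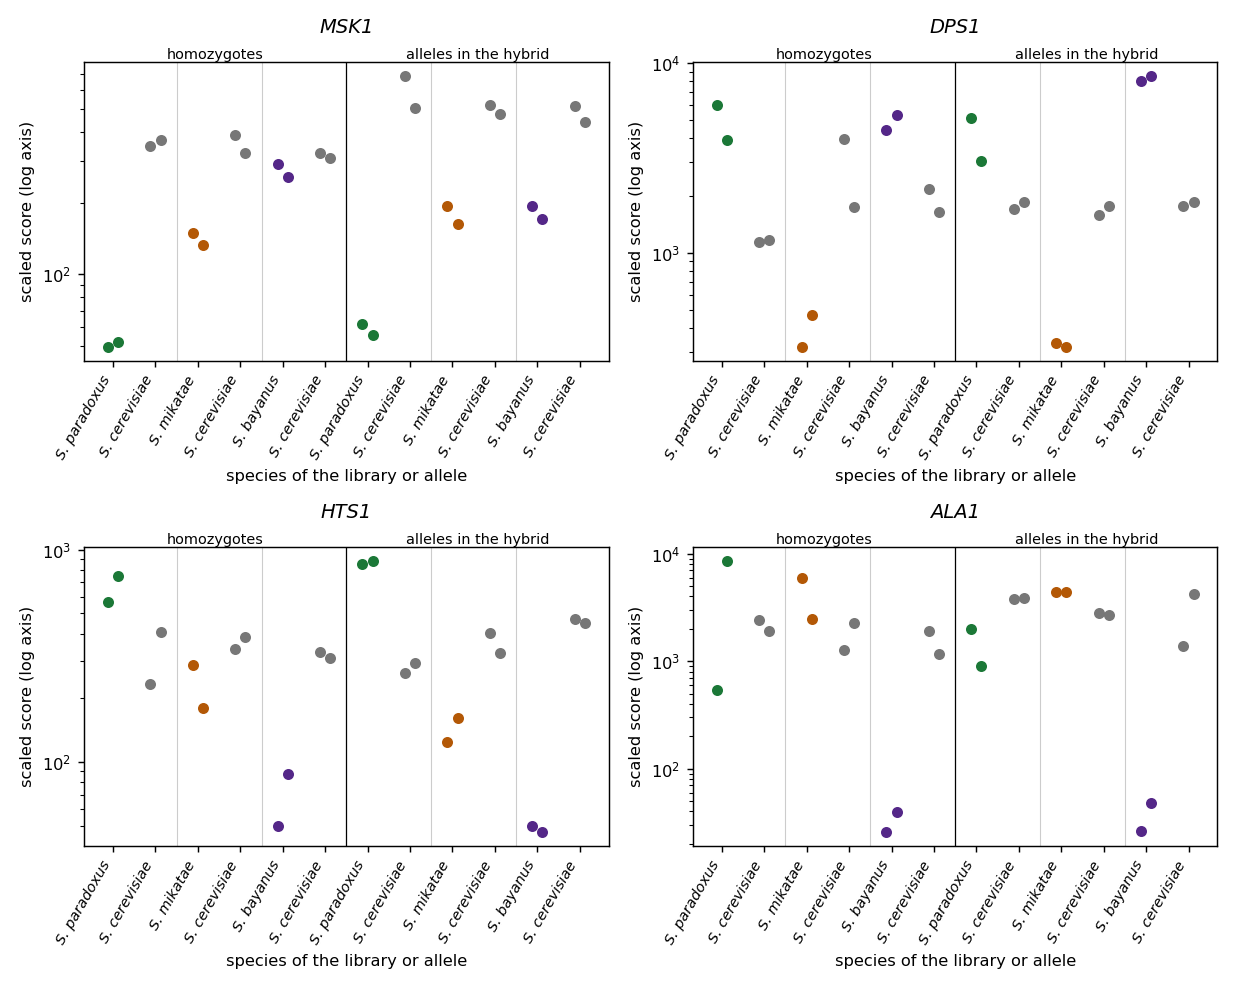
Scaled score (log axis) of MSK1, DPS1, HTS1 and ALA1 in each library, with each species beside the S. cerevisiae libraries or alleles it was compared with, homozygotes at the left and hybrid alleles at the right, and 2 replicates a group as points. MSK1 of S. paradoxus sits between 49.3 and 61.8 in all 4 columns, DPS1 of S. mikatae between 318 and 470, and ALA1 of S. bayanus between 25.6 and 48.1, each below all S. cerevisiae points of its panel.

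DPS1, which charges cytosolic aspartate tRNA, took opposite directions in different species. It was at 5985 and 3920 in S. paradoxus homozygotes, against 1138 and 1166 in S. cerevisiae, with a log2 ratio of 2.07 ± 0.33 (adjusted p = 0.0293). Against S. cerevisiae libraries 3 to 6 in place of 1 and 2 the ratio was 1.12 ± 0.43 and not called (adjusted p = 0.0954), and against all 6 it was 1.44 ± 0.48 (adjusted p = 0.0584). In S. mikatae homozygotes it was at 319 and 470, against 3977 and 1741 in S. cerevisiae, with a log2 ratio of -2.76 ± 0.51 (adjusted p = 0.0399). In S. bayanus homozygotes it was at 4444 and 5340, against 2175 and 1634 in S. cerevisiae, with a log2 ratio of 1.37 ± 0.27 (adjusted p = 0.0282). The S. mikatae values were thus the lowest and those of S. paradoxus and S. bayanus the highest of the 12 homozygote libraries, apart from S. cerevisiae library 3 at 3977, which exceeded S. paradoxus replicate 2.

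The alleles of DPS1 repeated the split. The S. mikatae alleles were at 334 and 318, against 1589 and 1760 for the S. cerevisiae alleles, with a log2 ratio of -2.36 ± 0.23 (adjusted p = 0.0236, and 0.0758 with the library as a block). The S. bayanus alleles were at 8052 and 8580, against 1752 and 1856 for the S. cerevisiae alleles, with a log2 ratio of 2.20 ± 0.17 (adjusted p = 0.00766). The S. paradoxus alleles were at 5121 and 3030, against 1698 and 1853 for the S. cerevisiae alleles, and the log2 ratio of 1.15 ± 0.38 was not called (adjusted p = 0.147). The S. cerevisiae allele itself stayed between 1589 and 1856 in all 6 columns. In the limma test between species, the ratio of S. bayanus exceeded that of S. mikatae by 4.13 ± 0.59 in homozygotes (adjusted p = 0.00256). In alleles it did so by 4.56 ± 0.38 (adjusted p = 0.000379). The test called 21.4% and 18.9% of all genes. It was added after the values were seen, for ratios already called in opposite directions in the same libraries. The difference was thus largely fixed in advance and is no separate support.

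HTS1, the histidine enzyme of both compartments, was lower in S. bayanus and higher on the S. paradoxus allele. It was at 49.97 and 87.6 in S. bayanus homozygotes, against 328 and 309 in S. cerevisiae, with a log2 ratio of -2.25 ± 0.37 (adjusted p = 0.0194). The S. bayanus alleles were at 49.6 and 46.5, against 472 and 449 for the S. cerevisiae alleles, with a log2 ratio of -3.24 ± 0.20 (adjusted p = 0.00708). The S. paradoxus alleles were at 857 and 885, against 263 and 293 for the S. cerevisiae alleles, with a log2 ratio of 1.65 ± 0.27 (adjusted p = 0.0497, and 0.118 with the library as a block). In S. paradoxus homozygotes the values were 569 and 748, against 234 and 409 in S. cerevisiae, and HTS1 was not called (log2 ratio 1.08 ± 0.39, adjusted p = 0.125). S. mikatae lay between: its homozygotes, at 287 and 179 against 341 and 387 in S. cerevisiae, gave -0.68 ± 0.34 (adjusted p = 0.226), and its alleles, at 124 and 160 against 405 and 326 for the S. cerevisiae alleles, gave -1.36 ± 0.29 (adjusted p = 0.0524). Between alleles the ratio of S. bayanus minus that of S. paradoxus was -4.88 ± 0.34 (adjusted p = 0.000165), in a comparison that called 18.1% of all genes. In homozygotes this difference was -3.33 ± 0.56 (adjusted p = 0.00350), where 27.9% of all genes were called. Both values come from the limma test between species that was added after the values were seen. It uses the same ratios and libraries and is no separate support.

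ALA1, the alanine enzyme of both compartments, had the lowest ratio of all members. S. bayanus homozygotes were at 25.6 and 39.9, against 1914 and 1178 in S. cerevisiae, with a log2 ratio of -5.51 ± 0.40 (adjusted p = 0.00996). The S. bayanus alleles were at 26.3 and 48.1, against 1390 and 4179 for the S. cerevisiae alleles, with a log2 ratio of -6.04 ± 0.67 (adjusted p = 0.0111). ALA1 was also the least repeatable member: S. paradoxus homozygotes were at 534 and 8584, on either side of the 2404 and 1914 of S. cerevisiae, and their log2 ratio was close to 0, with an SE of 1.39 (adjusted p = 0.999). In S. mikatae its homozygotes, at 5899 and 2449, exceeded the 1266 and 2259 of S. cerevisiae without a call (log2 ratio 1.17 ± 0.58, adjusted p = 0.218).

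Of the genes for phenylalanine, FRS2 of the cytosol fell and MSF1 of the mitochondrion rose in S. bayanus. FRS2, the catalytic subunit of the cytosolic enzyme, was at 522 and 527 in S. bayanus homozygotes, against 8002 and 7135 in S. cerevisiae, with a log2 ratio of -3.85 ± 0.21 (adjusted p = 0.00986). MSF1, the mitochondrial enzyme, was at 897 and 1394, against 89.2 and 65.1 in S. cerevisiae, with a log2 ratio of 3.86 ± 0.34 (adjusted p = 0.00996), the largest rise of any synthetase. FRS1, the partner subunit of FRS2, was at 1243 and 1074, against 776 and 812 in S. cerevisiae, and was not called (log2 ratio 0.54 ± 0.21, adjusted p = 0.118). FRS2 thus sat below S. cerevisiae, and FRS1 and MSF1 above it, with no overlap in any of the 3. Of all genes in this comparison, 37.0% were higher and 36.3% lower without overlap.

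In the alleles the phenylalanine pattern was smaller for both called genes. FRS2 was at 656 and 662 on S. bayanus alleles, against 2726 and 3045 on S. cerevisiae alleles, with a log2 ratio of -2.13 ± 0.16 (adjusted p = 0.00766). MSF1 was at 283 and 304 on S. bayanus alleles, against 137 and 167 on S. cerevisiae alleles, with a log2 ratio of 0.95 ± 0.21 (adjusted p = 0.0400, and 0.0742 with the library as a block). The homozygote ratio minus the allele ratio was -1.72 ± 0.25 for FRS2 (adjusted p = 0.0362, and 0.0679 with the block) and 2.90 ± 0.42 for MSF1 (adjusted p = 0.0362, and 0.0679 with the block). Both calls were also lost when any 1 of the 6 libraries was left out. Against all 6 S. cerevisiae libraries, where FRS2 ran from 898 to 8002, its difference was -0.55 ± 1.12 (adjusted p = 0.886), while that of MSF1 was 2.71 ± 0.54 (adjusted p = 0.0318). MSF1 was above S. cerevisiae in all 6 comparisons, and in S. mikatae homozygotes, where it was called too, it was at 265 and 186, against 63.3 and 70.3 in S. cerevisiae (log2 ratio 1.72 ± 0.32, adjusted p = 0.0403).

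For leucine, CDC60 of the cytosol fell and NAM2 of the mitochondrion, which also takes part in splicing of mitochondrial introns, rose in S. bayanus homozygotes. CDC60 was at 728 and 1143, against 5843 and 6709 in S. cerevisiae, with a log2 ratio of -2.78 ± 0.31 (adjusted p = 0.0113). NAM2 was at 585 and 476, against 79.5 and 78.2 in S. cerevisiae, with a log2 ratio of 2.73 ± 0.25 (adjusted p = 0.00996). The ratio of CDC60 to NAM2 was 1.25 to 2.40 in S. bayanus homozygotes, against 30.1 to 85.8 in the 6 S. cerevisiae libraries. On S. bayanus alleles CDC60 was at 1353 and 2040, against 5484 and 4660 on S. cerevisiae alleles, with a log2 ratio of -1.60 ± 0.28 (adjusted p = 0.0233, and 0.0525 with the library as a block), while NAM2, at 529 and 247 on S. bayanus alleles against 309 and 261 on S. cerevisiae alleles, was not called (log2 ratio 0.35 ± 0.44, adjusted p = 0.575).

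S. mikatae homozygotes shared the rise of NAM2, which was at 1486 and 464, against 77.3 and 78.7 in S. cerevisiae, with a log2 ratio of 3.40 ± 0.64 (adjusted p = 0.0402), the largest of any synthetase in that species. Without replicate 1, the library with the high stress sum, it was 2.56 ± 0.32 and not called (adjusted p = 0.0650). CDC60 in S. mikatae was high and uneven. Its homozygotes were at 6507 and 26090, against 5652 and 4287 in S. cerevisiae (log2 ratio 1.40 ± 0.76, adjusted p = 0.248). The S. mikatae alleles were at 27020 and 75360, against 7961 and 3269 for the S. cerevisiae alleles, the largest allele ratio of any synthetase in that hybrid, 3.14 ± 0.74 on the log2 scale, which was not called (adjusted p = 0.0629). Replicates of CDC60 also differed in S. paradoxus homozygotes, at 3373 and 23253.

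In S. mikatae GUS1, the glutamate enzyme, was at 1983 and 1680 in homozygotes, against 4921 and 4195 in S. cerevisiae (log2 ratio -1.32 ± 0.26, adjusted p = 0.0419). Its S. mikatae alleles, at 2375 and 1564 against 4848 and 5386 for the S. cerevisiae alleles, missed the threshold (log2 ratio -1.41 ± 0.32, adjusted p = 0.0583). ARC1, the cofactor that binds the methionine and glutamate enzymes and helps them bind tRNA, was at 3722 and 4232 on S. mikatae alleles, against 1538 and 1472 on S. cerevisiae alleles (log2 ratio 1.40 ± 0.24, adjusted p = 0.0371, and 0.0871 with the library as a block). GUS1 and its cofactor thus lay on opposite sides of the S. cerevisiae values of this pair, but neither setting called both. Over all S. cerevisiae homozygote libraries GUS1 ran from 1718 to 5809, a range that takes in the 1983 of S. mikatae. In S. mikatae homozygotes ARC1 was at 3295 and 3249, against 1623 and 1590 in S. cerevisiae, just outside the threshold (log2 ratio 1.03 ± 0.23, adjusted p = 0.0510). DED81, the asparagine enzyme, was at 3098 and 3176 on S. mikatae alleles, against 6824 and 8099 on S. cerevisiae alleles (log2 ratio -1.24 ± 0.25, adjusted p = 0.0491, and 0.0974 with the block).

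In S. bayanus TYS1, the tyrosine enzyme, and WRS1, the tryptophan enzyme, were lower in both settings. TYS1 was at 474 and 404 in homozygotes, against 1153 and 1362 in S. cerevisiae, with a log2 ratio of -1.52 ± 0.23 (adjusted p = 0.0164). On S. bayanus alleles it was at 575 and 559, against 1663 and 1933 on S. cerevisiae alleles, with a log2 ratio of -1.66 ± 0.17 (adjusted p = 0.00993). WRS1 had log2 ratios of -0.93 ± 0.21 in homozygotes (adjusted p = 0.0394) and -0.82 ± 0.16 in alleles (adjusted p = 0.0283, and 0.0651 with the library as a block). GUS1 on S. bayanus alleles was at 8644 and 7854, against 3630 and 3123 on S. cerevisiae alleles, with a log2 ratio of 1.29 ± 0.19 (adjusted p = 0.0174), and in homozygotes its ratio of 0.05 ± 0.35 was not called (adjusted p = 0.922), with no call for the difference between the ratios (adjusted p = 0.190). The 6 cytosolic genes never called were FRS1, GRS1, ILS1, MES1, THS1 and VAS1.

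The mitochondrial enzymes were higher as a list in S. bayanus homozygotes, and their median ratio lay farther from that of all genes than any other list median of homozygotes or alleles. Of the 14 genes, 13 had a ratio above 0, with a median of 1.31, where all genes had 0.02. The median was 1.27 to 1.497 when 1 library was left out, and 1.12 against all 6 S. cerevisiae libraries. All 14 had groups that did not overlap, 13 higher and MSK1 lower, against 37.0% of all genes higher and 36.3% lower without overlap. Their summed scores were 4404 and 4735 in S. bayanus, against 1523 and 1626 in S. cerevisiae libraries 5 and 6, and 1523 to 2292 over all 6 S. cerevisiae libraries. Besides MSF1 and NAM2, MSR1, the arginine enzyme, was at 320 and 287, against 46.0 and 45.2 in S. cerevisiae, with a log2 ratio of 2.71 ± 0.25 (adjusted p = 0.0100). MSY1 for tyrosine (2.10, and 1.15 and not called against all 6 S. cerevisiae libraries), ISM1 for isoleucine (2.02), AIM10, a probable proline enzyme (1.60), and MSE1 for glutamate (1.36) were also called higher, on the log2 scale. The 7 not called had log2 ratios from -0.21 (MSK1) to 1.27 (SLM5).

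**Figure D4:**
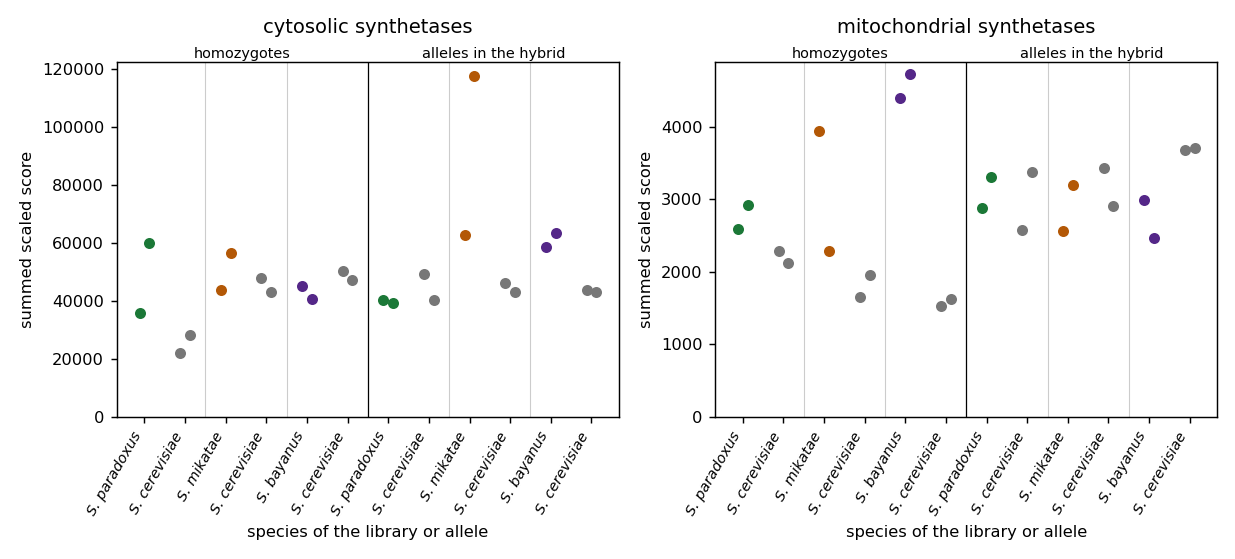
Summed scaled score of the 16 cytosolic (left) and 14 mitochondrial (right) synthetases in each library or allele, with each species beside the S. cerevisiae libraries or alleles it was compared with and 2 replicates a group as points. The S. bayanus homozygotes, at 4404 and 4735, have the highest mitochondrial sums, and the S. cerevisiae libraries beside S. paradoxus, at 22145 and 28395, the lowest cytosolic sums.

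On S. bayanus alleles the mitochondrial list was not higher. The mitochondrial sums were 2990 and 2465 on S. bayanus alleles, against 3680 and 3713 on S. cerevisiae alleles, but 7 of the 14 ratios were above 0, with a median of -0.04. Without MSD1 and MSK1, left out after their values were seen, the sums overlapped, at 2638 and 2160 on S. bayanus alleles, against 2453 and 2472 on S. cerevisiae alleles. The homozygote ratio exceeded the allele ratio in 14 of 14 mitochondrial genes, with a median difference of 1.65 on the log2 scale, and in 6 of 16 cytosolic genes, with a median of -0.33, where all genes had a median of 0.00. The test of this difference called 3 synthetases in S. bayanus, MSD1 and MSF1 higher and FRS2 lower, against 1.84% of all genes. An unadjusted p under 0.05 was given by limma for 18 synthetases, among them 13 of the 14 mitochondrial genes, against 846 of all 4575 genes. With the library as a block 1 was called, MSD1, against 0.852% of all genes. When any single library was left out, fewer synthetases or none were called, while the mitochondrial median stayed between 1.60 and 1.78. Set against all 6 S. cerevisiae libraries, this median was 1.38.

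**Figure D5:**
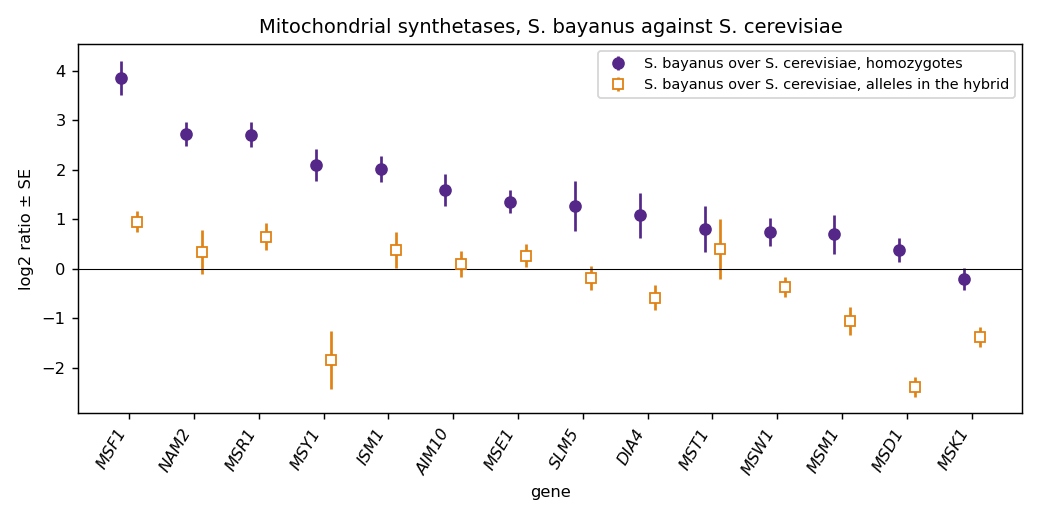
Log2 ratio (± SE) of S. bayanus over S. cerevisiae for the 14 mitochondrial synthetases, in homozygotes (filled circles) and between hybrid alleles (open squares), in order of the homozygote ratio. Every circle lies above its square, with the widest gaps for MSY1, MSF1 and MSD1.

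MSD1, the mitochondrial aspartate enzyme, had the lowest adjusted p of any synthetase for the difference between homozygote and allele ratios. In S. bayanus homozygotes it was at 204 and 224, against 181 and 148 in S. cerevisiae, and was not called (log2 ratio 0.38 ± 0.25, adjusted p = 0.298). On S. bayanus alleles it was at 158 and 133, against 716 and 801 on S. cerevisiae alleles, with a log2 ratio of -2.38 ± 0.20 (adjusted p = 0.00816). The difference between the ratios was 2.76 ± 0.31 (adjusted p = 0.0197, and 0.0498 with the library as a block). The S. cerevisiae alleles in this hybrid were far above the 97.1 to 270 of the 6 S. cerevisiae homozygote libraries and above the 190 to 224 of S. cerevisiae alleles in the other hybrids. For MSY1 the difference was larger, at 3.94 ± 0.72, but not called (adjusted p = 0.0525).

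In the other species this contrast was called for no synthetase, and whether it differed from that of S. bayanus was not tested. The homozygote ratio exceeded the allele ratio in 12 of 14 mitochondrial genes in S. mikatae, with a median difference of 0.59. In S. paradoxus it did so in 7 of 14, with a median of 0.02. For cytosolic genes the counts were 6 of 16 in S. mikatae (median -0.24) and 13 of 16 in S. paradoxus (median 0.67). All genes had medians of -0.11 in S. mikatae and -0.21 in S. paradoxus. The S. paradoxus homozygote ratios used S. cerevisiae libraries 1 and 2, which stood apart, as given above. The limma count of synthetases was 0 in both species, against 0.11% and 0.808% of all genes. At an unadjusted p under 0.05 there were 4 and 1 synthetases, against 638 of 4564 and 927 of 4582 genes. The mitochondrial genes called in S. mikatae homozygotes were NAM2, MSF1, MSK1 and MSE1, the glutamate enzyme, which was at 292 and 267, against 90.7 and 71.7 in S. cerevisiae (log2 ratio 1.78 ± 0.29, adjusted p = 0.0324). Without S. mikatae replicate 1, the library with the high stress sum, the mitochondrial median in homozygotes was 0.24 in place of 0.45.

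Genes of mitochondrial respiration and of stress were read beside these results because both change with the state of a culture. The 5 respiration genes (CYC1, ATP2, SDH2, CIT1 and ACO1) summed to 4265 and 7591 in S. bayanus homozygotes, against 4564 and 7256 in S. cerevisiae. Of the 5, CIT1, the citrate synthase, was called higher in S. bayanus homozygotes (log2 ratio 1.36 ± 0.31, adjusted p = 0.0388). CYC1, which encodes cytochrome c, was called higher in S. paradoxus homozygotes (3.10 ± 0.32, adjusted p = 0.0225) and lower in S. mikatae homozygotes (-2.19 ± 0.30, adjusted p = 0.0259). In S. mikatae the 5 genes summed to 7040 and 12049, against 12262 and 7444 in S. cerevisiae, and in S. paradoxus to 12303 and 12818, against 10266 and 12917 in S. cerevisiae. The 4 stress genes summed to 1216 and 479 in S. bayanus homozygotes, against 481 and 618 in S. cerevisiae. The part of culture state in the synthetase ratios was not tested.

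Of 15 genes that work beside the synthetases, 13 were in the data, and 10 to 12 passed the minimum score in each comparison. None was called in either S. paradoxus comparison by limma, against 19.9% of all genes in homozygotes and 4.99% in alleles. At an unadjusted p under 0.05 there was 1 in homozygotes, against 1796 of 4588 genes, and 5 in alleles, against 1253 of 4508. In S. mikatae homozygotes 1 of 12 was higher and 1 lower, against 19.7% of all genes in either direction, and in its alleles 1 of 11 was higher, against 15.8%. In S. bayanus homozygotes 3 of 11 were higher and 1 lower, against 34.6% of all genes, and in its alleles 1 of 10 was higher and 2 lower, against 35.3%. DTD1, which removes D-amino acids from tRNA, was called higher in all 4 of the S. mikatae and S. bayanus comparisons, though with the library as a block the call was lost between S. mikatae alleles (adjusted p = 0.0758) and held between S. bayanus alleles (adjusted p = 0.0350). It stood at 808 and 650 in S. bayanus homozygotes, against 42.5 and 91.2 in S. cerevisiae (log2 ratio 3.52 ± 0.45, adjusted p = 0.0135). PTH2, a peptidyl-tRNA hydrolase, was at 57.5 and 64.5 in S. bayanus homozygotes, against 636 and 577 in S. cerevisiae (log2 ratio -3.29 ± 0.24, adjusted p = 0.00996). Between S. bayanus alleles its log2 ratio was -3.21 ± 0.33 (adjusted p = 0.00993, and 0.0321 with the library as a block).

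Among partners of the mitochondrion, TUF1, the mitochondrial elongation factor that delivers charged tRNA to the ribosome, was at 4907 and 5683 in S. bayanus homozygotes, against 1310 and 1112 in S. cerevisiae (log2 ratio 2.13 ± 0.23, adjusted p = 0.0107). HER2, a subunit of the amidotransferase that makes mitochondrial glutaminyl-tRNA, was at 217 and 138, against 27.2 and 44.6 in S. cerevisiae (log2 ratio 2.28 ± 0.43, adjusted p = 0.0261). Between S. bayanus alleles neither TUF1 (log2 ratio 0.77 ± 0.44, adjusted p = 0.242) nor HER2 (0.15 ± 0.34, adjusted p = 0.760) was called. GTF1, another subunit of the amidotransferase, was called lower in S. mikatae homozygotes, at 66.3 and 68.5, against 206 and 218 in S. cerevisiae (log2 ratio -1.64 ± 0.27, adjusted p = 0.0327). GCN4 differed between S. bayanus and S. cerevisiae alleles, at 2002 and 2139 against 13072 and 11376 (log2 ratio -2.56 ± 0.18, adjusted p = 0.00753). GCN4 in S. bayanus homozygotes was at 1411 and 26642, against 8894 and 2748 in S. cerevisiae, with overlapping groups (log2 ratio 0.31 ± 1.62, adjusted p = 0.899).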

How the data were processed

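The deposited values are scores: per the paper's methods, the authors trimmed poly-A tails, mapped reads to both genomes of a species pair, kept unique hits, dropped reads likely to come from internal priming, weighted reads for GC content and summed them per gene over a window around the open reading frame. The deposited scores are whole numbers, and how weighted sums came to be whole is not stated. The submitters' processing notes name CASAVA 1.7 and Bowtie 0.12.7, and the authors took the genomes and gene limits from the Saccharomyces sensu stricto resource, some limits from the Saccharomyces Genome Database, with no build named for the genomes. No scaling between libraries was included, so each library or allele was scaled here to a common upper quartile.

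Log2 of the scaled score plus 1 was tested with limma 3.58.1 in R 4.3.3 (trended variance, genes with a mean of at least 10, Benjamini-Hochberg adjustment over all genes, threshold 0.05, 2 libraries against 2). A fold change on this scale understates that of low genes. Since the scores may carry these weights, they were not taken as plain counts, and limma was used in place of a count model. The depth was 4760197 to 6883279 per homozygote library and 2255430 to 3336994 per allele, and no counting interval was computed. Homozygotes were compared with the S. cerevisiae libraries counted for the same pair of genomes, which the authors' naming of the processed data gives and the sample labels do not, with all 6 as an alternative. Alleles of 1 hybrid library come from 1 culture and are paired by it. Across genes, however, replicate deviations of the alleles correlated at only 0.0589, 0.0128 and 0.0292 in the S. paradoxus, S. mikatae and S. bayanus hybrids. Homozygotes of the S. paradoxus pair with the same replicate number gave 0.0142. The difference between homozygote and allele ratios was an interaction term. The comparisons of 2 libraries against 2, of homozygotes and of alleles, were run on simulated data. The interaction, the replicate block, the fits over all libraries and the tests between species were not.

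Scores in the libraries of a comparison are given for members called in it, up to 6 by size, and for the largest ratio in each. DPS1, MSK1 and HTS1, each called in at least 3 comparisons, have scores for all 6. MSF1 was also called in 3, and its scores are given for those only. The members and lists were chosen with earlier results of these data known. Tests between species, S. cerevisiae libraries 3 to 6 as reference and leaving out libraries in the interaction were added after the values were seen. Alternatives covered the scaling, the minimum score, the constant added, the reference, 1 fit over all libraries, a replicate block and leaving out libraries. Promoter windows and gene positions came from the RefSeq annotation of R64, where all 36 members matched, with motifs read on both strands. Python 3.11.15, NumPy 2.4.6, pandas 2.3.3 and Matplotlib 3.10.9 were used.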

Additional observations from a re-analysis of the deposited data

Results flagged for a closer look

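Among the 6 S. cerevisiae homozygote libraries, 4 members had a sample far from the others, a test that by chance marks about 1 in 20 of the groups, here 30. DPS1 was at 3976.6 and FRS1 at 3579.2 in library 3, both above the other 5. MSM1, the mitochondrial methionine enzyme, was at 330.6 in library 1, and NAM2 at 107.88 in library 2, both also above the other 5.

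In S. bayanus the homozygote ratio minus the allele ratio passed limma's interaction test for FRS2 at -1.72, MSD1 at 2.76 and MSF1 at 2.905 on the log2 scale, and with the library as a block MSD1 alone passed (adjusted p = 0.0679 by limma for each of the others). The differences between species given next are for ratios to S. cerevisiae that were called in opposite directions. The test of them was added after the values were seen and uses those same ratios and libraries. A difference was therefore largely fixed in advance and is no separate support. For DPS1 the S. mikatae ratio minus the S. paradoxus ratio was -4.83 in homozygotes. The S. bayanus ratio of DPS1 minus that of S. mikatae was 4.13 in homozygotes and 4.56 in alleles. For HTS1 the S. bayanus ratio minus the S. paradoxus ratio was -4.88 in alleles.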

How the results depend on the processing

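Each of the 42 called ratios of single members kept its direction under the alternatives run for it, which kept the call 362 times and lost it 135 times. The counts that follow mostly stand without the share of all genes called under the same alternative, and show only how they moved. Called synthetases in S. paradoxus homozygotes numbered 5 in 1 fit over all homozygote libraries, 6 with all 6 S. cerevisiae libraries as reference, 7 with libraries 3 to 6, 1 with the replicate block, and 0 to 0 when 1 library was left out, in place of 2. In S. paradoxus alleles the count of 2 became 1 when scaled by library total, by median of ratios, with a minimum mean of 50 or with 0.5 added, 4 in 1 fit over all allele columns, 2 and 4 in that fit without hybrid replicate 1 or 2, and 0 with the replicate block. In S. mikatae homozygotes it was 0 to 0 with 1 library left out, in place of 6, and in its alleles 8 in 1 fit and 0 with the block, in place of 4. In S. bayanus it was 0 to 8 with 1 library left out of the homozygotes, in place of 14, and 7 and 7 without hybrid replicate 1 or 2, in place of 11. The S. bayanus difference between homozygote and allele ratios called 5 with a minimum mean of 50, 1 with the block and 0 to 1 with 1 library left out, in place of 3.

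Median log2 ratios of the cytosolic list moved most, and changed sign in S. paradoxus homozygotes, both S. paradoxus and S. mikatae alleles and S. bayanus homozygotes. In S. paradoxus homozygotes they were 0.19 by library total, 0.64 by median of ratios, -0.037 against all 6 S. cerevisiae libraries and 0.24 to 0.56 with 1 library left out, and in its alleles 0.059 by library total and 0.18 with 1 library size for both alleles. In S. mikatae homozygotes they were -0.74, -0.24, -0.037 and -0.46 to -0.26 under those alternatives, and in its alleles 0.07 with 1 library size and -0.14 to 0.016 without a hybrid library. In S. bayanus homozygotes they were 0.033 against all 6 libraries and -0.32 to -0.21 with 1 left out, and in its alleles 0.13 with 1 library size and 0.012 to 0.019 without a hybrid library. Medians of the mitochondrial list were 0.14 by library total and 0.75 against all 6 libraries in S. paradoxus homozygotes, 0.92 with 1 library size in its alleles, 0.11 by library total and 0.24 to 0.56 with 1 library left out in S. mikatae homozygotes, and -0.53 to -0.048 without a hybrid library in its alleles. The cause of these shifts was not tested.

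With 2 libraries a group, replicates of a gene differed by an SD of 0.853 to 1.07 on the log2 scale over all genes. The block changed no call of a named member other than those given beside it and DPS1 in S. paradoxus homozygotes (adjusted p = 0.0576 by limma), where replicate numbers mark no shared source.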
